A study of Mus musculus with 6 samples.

Results

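Levels of 10 membrane transporters of the solute carrier class, out of 32285 genes counted, were followed in nuclei of injured mouse brain. They were Slc22a6, Slc22a8, Slc22a2, Slc13a3, Slc13a4, Slc6a20a, Slc6a13, Slc47a1, Slc47a2 and Slc26a7. The genes were chosen by name, with their levels in these same libraries already known, so their levels by fibroblast type and library are given as a description. The first 7 are called the arachnoid carriers below and the last 3 the late carriers, after the fibroblast types and the time at which the list placed them. Single nuclei came from lesions made by photothrombotic (PT) injury, in which a light-activated dye closes the vessels of a small piece of cortex. Every mouse had the injury. Ctrl mice had the genotype WT and no treatment named in the labels, and ADWA11 mice were WT and received the antibody ADWA11, which blocks integrin αvβ8, an activator of latent TGFβ. Tgfbr2-cKO mice carried Col1a2(creER) and Tgfbr2(flox) and had no treatment named in the labels. With creER the deletion is induced by tamoxifen, which the study describes for its conditional knockouts, with no schedule stated for these libraries. Loss of the TGFβ receptor gene is limited to cells that use the Col1a2 promoter, mainly fibroblasts. The share of fibroblasts that lost it in these libraries is not given. Each condition was sampled at 7 and 21 days post injury (dpi) as 1 library, made from the combined lesions of 1 male and 1 female mouse, so the 6 groups were 6 libraries from 12 mice and no age is given in the labels.

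Solute carriers move small molecules across cell membranes. The arachnoid is the middle layer of the meninges and forms a barrier between the blood of the dura and the cerebrospinal fluid, and its fibroblast-like barrier cells are known for transporters of the kinds found in kidney tubule. Slc22a6 (OAT1) and Slc22a8 (OAT3) take up organic anions in exchange for dicarboxylates, which the sodium-coupled carrier Slc13a3 (NaDC3) brings into the cell. Slc22a2 (OCT2) takes up organic cations, and Slc47a1 and Slc47a2 (the MATE transporters) pass organic cations out of cells in exchange for protons. Slc13a4 carries sulfate with sodium, Slc6a20a carries proline and related imino acids, Slc6a13 (GAT2) carries GABA and taurine, and Slc26a7 is an anion transporter of the sulfate carrier family.

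The 10 genes lay on 7 chromosomes of GRCm38 (mm10), by the GENCODE M21 annotation, and 4 of them formed 2 neighbouring pairs. Slc22a8 (chr19:8591254-8611835, + strand) ended 6203 bases before Slc22a6 (chr19:8618039-8628299, + strand), with 0 genes between them. Slc47a2 (chr11:61301631-61342860) and Slc47a1 (chr11:61343401-61378345) lay on the − strand, 540 bases apart. The others were Slc22a2 (chr17:12584132-12628488, +), Slc13a3 (chr2:165405028-165473230, −), Slc13a4 (chr6:35267957-35308131, −), Slc6a13 (chr6:121300227-121337733, +), Slc6a20a (chr9:123634770-123678885, −) and Slc26a7 (chr4:14502430-14621805, −). Slc6a20a lay 2204 bases from its paralog Slc6a20b and overlapped Gm17120, Gm17200 and Ccr9 on the opposite strand, and Slc13a3 overlapped the antisense gene Gm14437. How the counts were divided between such genes is uncertain, so the levels of Slc6a20a and Slc13a3 carry that limit.

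Promoter windows are shown for genes that were measured as sets. RefSeq windows (GRCm38.p6, 250 bases before the annotated start) matched 8 of the 10 genes, in 10 entries, and Slc47a1 and Slc26a7 had none. The motif GTTAAT, the core of sites bound by HNF1-type factors in kidney and liver, was searched on both strands. It stood in 4 of the 10 entries and in 6.43% of the 32851 promoters of the same length. All 4 matches were in arachnoid carriers, to which 9 of the 10 entries belong, so the sets cannot be compared. They are shown in 30 bases each, 5′ to 3′ on the gene's strand, with the motif or its reverse complement in capitals, for Slc22a6 at chr19:8617928-8617957, Slc22a8 at chr19:8593089-8593118, Slc6a20a at chr9:123678871-123678900 and Slc6a13 at chr6:121300660-121300689. The starts used are those of RefSeq. By GENCODE all 250 bases of the Slc22a8 window and 53 bases of the Slc6a20a window lay in exons of the same gene. The Slc6a13 match lay inside that gene as GENCODE places it, before a later RefSeq start.
Slc22a6: aatactcacaggGTTAATccttctgacacc
Slc22a8: cccctgccggatGTTAATcttccaaagaaa
Slc6a20a: ccccgcgcgcgcGTTAATgagattagcaat
Slc6a13: gctgcgttactcATTAACctcaggggtcag
The whole windows of Slc22a6 (chr19:8617746-8617995, + strand) and Slc47a2 (chr11:61342861-61343110, − strand) stand for the 2 sets, and neither overlapped an annotated exon. In both, capitals also mark CATTCC, the reverse complement of the TEAD motif GGAATG. The Slc47a2 window lay wholly in the gap of 540 bases that separates it from Slc47a1.
Slc22a6: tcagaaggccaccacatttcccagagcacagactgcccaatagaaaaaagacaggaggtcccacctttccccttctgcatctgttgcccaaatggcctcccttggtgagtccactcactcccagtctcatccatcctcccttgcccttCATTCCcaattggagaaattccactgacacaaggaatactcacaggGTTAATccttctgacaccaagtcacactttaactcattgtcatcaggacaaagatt
Slc47a2: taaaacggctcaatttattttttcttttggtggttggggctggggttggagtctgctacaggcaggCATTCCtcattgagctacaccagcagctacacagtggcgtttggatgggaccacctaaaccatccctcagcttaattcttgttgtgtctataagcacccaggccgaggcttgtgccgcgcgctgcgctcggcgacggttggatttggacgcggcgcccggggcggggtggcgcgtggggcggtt
Of the other motifs searched on both strands, GGAATG stood in 6 of the 10 entries, those of Slc22a6, Slc22a8, Slc22a2, Slc13a4, Slc6a13 (1 entry) and Slc47a2, and in 12.6% of all promoters. Over all promoters the SMAD motifs GTCTGNC and CAGACA stood in 12.6% and 17.1%, the hormone receptor motif AGGTCA in 14.0%, the AP-1 motif TGANTCA in 6.75% and the FOX motif TGTTTAC in 3.17%. GTCTGNC had matches in windows of Slc22a2, Slc13a3 and Slc6a13, CAGACA in those of Slc22a2 and Slc6a13, and AGGTCA in 1 of Slc6a13. TGANTCA and TGTTTAC had no match in these windows. A match is a string of letters and not a bound site.

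The libraries held 67360 barcodes, of which 61300 nuclei were kept, with library medians of 4601.5 to 8222.5 unique molecular identifiers (UMIs) per barcode. Between 21 and 61 barcodes were shared by any pair of libraries, at most 0.513% of a library. Fibroblast-like nuclei, named by marker genes that include none of the 10 carriers, numbered 12560, with 1955 of Ctrl, 2492 of ADWA11 and 325 of Tgfbr2-cKO mice at 7 dpi, then 4134, 2785 and 869 at 21 dpi. The Tgfbr2-cKO library at 7 dpi stood apart, with the fewest fibroblasts and the highest summed level of 6 neuron markers in them, 195 CPM (UMIs as counts per 1e6 of all non-mitochondrial UMIs) against 1.76 to 57.2 CPM in the other libraries. Fibroblast Tgfbr2 itself, counted over the whole gene, ran from 185 to 318 CPM and checks nothing, since most of its counts can come from outside the deleted exon.

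Fibroblasts were divided into types by clustering in which the 10 carriers were left out. The types that the results turn on were an arachnoid-like one of 2081 nuclei, in which Cldn11, Cdh1, Dpp4, Wnt6, Trpm3 and Ptgds were raised, and a pial or leptomeningeal-like one of 1331 nuclei, in which Lama1, Lamc3, Aldh1a2, Rdh10 and Cemip were raised. A dural-like type of 4280 nuclei had Alpl, Fxyd5 and Ccn3 raised, 3 of its 7 markers, although only lesions were dissected. The other 4 do not set it apart, since Dkk2 (12.7 CPM as a mean over libraries, against 91.5 CPM in the type with myofibroblast markers), Mgp (295 against 312 CPM in the late inner-like type), Slit2 (2924 against 3294) and Foxp2 (3696 against 3704) were no higher there, so the name rests on few genes. Alpl was near its late inner-like level (72.8 against 64.5 CPM). No type was named by the lymphocyte-interactive markers Cd80, Cxcl12, Cxcl16, Ccl19, Il33 and Icam1. Cd80 (196 CPM) and Cxcl12 (299 CPM) were higher in an unnamed type of 319 nuclei (231 and 1048 CPM). The other 4 were near or below their level in another type. The study labels a joint altered dural and lymphocyte-interactive cluster, and its match to the dural-like type was not tested. The other 4 arachnoid markers did not set the arachnoid-like type apart either. Abcg2 (185 CPM) and Crabp2 (5.62 CPM) were lower there than in the dural-like type (267 and 6.10 CPM). Angptl2 was at 8.85 CPM against 14.1 CPM in the pial or leptomeningeal-like type, and Krt18 had 2 fibroblast UMIs in all. Of the pial or leptomeningeal markers, S100a6 was no higher in its type (46.7 CPM) than in the one with myofibroblast markers (48.5 CPM). Ngfr had 34 fibroblast UMIs. A late inner-like type of 1691 nuclei carried Fgf13, Cdh18, Sema3c and Nox4. Its remaining marker, Pde11a, was at 114 CPM there, as a mean over libraries, against 423 CPM in the dural-like type. Cdh18 was at 237 CPM, below the type with myofibroblast markers (342 CPM) and an unnamed type of 319 nuclei (850 CPM). A type of 2587 nuclei with 5 myofibroblast markers raised was left unnamed, because Vcan, used here as an oligodendrocyte precursor marker, was among its 10 leading genes and no fibroblast or myofibroblast marker was. A further unnamed type of 319 nuclei lay almost wholly in 1 library, with 306 nuclei in Tgfbr2-cKO at 21 dpi, and its leading genes were Gabrg3, Ebf3 and Lingo2. Proliferating-like nuclei numbered 271, and 35.1% of them were called doublets. Choroid plexus also uses some of these carriers. The summed level of 5 ependymal and choroid plexus markers in fibroblasts was 2.55 to 18.4 CPM, with Ttr, Foxj1 and Otx2 at 0 in all 3 libraries at 7 dpi. At 21 dpi only Otx2 was at 0 in all 3 libraries, so Ttr and Foxj1 were counted there.

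Levels below are CPM, the UMIs of a gene scaled to the total of all non-mitochondrial UMIs, summed over the nuclei named. The range in brackets after a level is an exact Poisson 95% interval, shares of nuclei have exact binomial (Clopper-Pearson) 95% intervals, and both cover counting error only, not the spread between mice. Nuclear counts also grow with gene length, so no level is compared between genes. With 1 library per group there was no test of any difference.

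The arachnoid carriers other than Slc6a13 were highest in arachnoid-like nuclei. Summed over the 6 libraries, Slc22a6 reached 53.5 CPM (49.97 to 57.2) in arachnoid-like nuclei, 39.5 CPM (35.8 to 43.5) in pial or leptomeningeal-like nuclei and 1.08 CPM (0.767 to 1.49) in dural-like nuclei. Slc22a8 had 173, 74.1 and 10.3 CPM in the same order. Its partner in dicarboxylate exchange, Slc13a3, had 150.2, 67.5 and 2.51 CPM. In each of these genes the arachnoid-like level lay above the pial or leptomeningeal-like level with intervals that did not overlap, and the dural-like level was far below both. The cation carrier Slc22a2 had 51.3, 20.1 and 4.25 CPM, the sulfate carrier Slc13a4 211, 49.6 and 23.0 CPM and the imino acid carrier Slc6a20a 1281, 439 and 16.9 CPM.

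Slc6a13 differed from the other 6 arachnoid carriers in its order. It was higher in pial or leptomeningeal-like nuclei, at 369 CPM (358 to 381), than in arachnoid-like nuclei, at 262 CPM (254 to 270.1). The type with myofibroblast markers held less of every arachnoid carrier, from 1.5 CPM of Slc22a2 to 32.6 CPM of Slc6a20a. Late inner-like nuclei held 0.975 to 6.97 CPM of each. These levels are far under those of the arachnoid-like type, which took between 60.3% (Slc22a6) and 76.1% (Slc6a20a) of all fibroblast UMIs of 6 of the genes. For Slc6a13 the arachnoid-like share was 45.6%.

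The late carriers had another distribution, centred on dural-like nuclei. Slc47a1 reached 895 CPM (885 to 905) in dural-like nuclei, 265 CPM in late inner-like nuclei, 149 CPM in arachnoid-like nuclei and 12.4 CPM in pial or leptomeningeal-like nuclei. Slc47a2, the other MATE gene, had 192, 56.0, 18.5 and 2.00 CPM in the same order. The order of the 4 types was shared by both in these sums, which join libraries of unequal level. Within Ctrl at 21 dpi, which held 1336 of the late inner-like nuclei, Slc47a1 was higher in arachnoid-like (369 CPM) than in late inner-like nuclei (319 CPM), and the means over libraries were 139 and 144 CPM, so no order of these 2 types is read from Slc47a1. Slc26a7 was the broadest of the 3, with 239 CPM in dural-like, 168 CPM in late inner-like, 91.3 CPM in the type with myofibroblast markers and 41.4 CPM in arachnoid-like nuclei. Dural-like nuclei took 80.1% of fibroblast UMIs of Slc47a1, 83.0% of Slc47a2 and 60.1% of Slc26a7. When the 10 carriers were kept in the clustering, 12387 of the 12560 fibroblasts (98.6%) had the same type number. The type with most UMIs of Slc6a13 then changed from arachnoid-like (45.6%) to pial or leptomeningeal-like (45.2%).

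**Figure D1:**
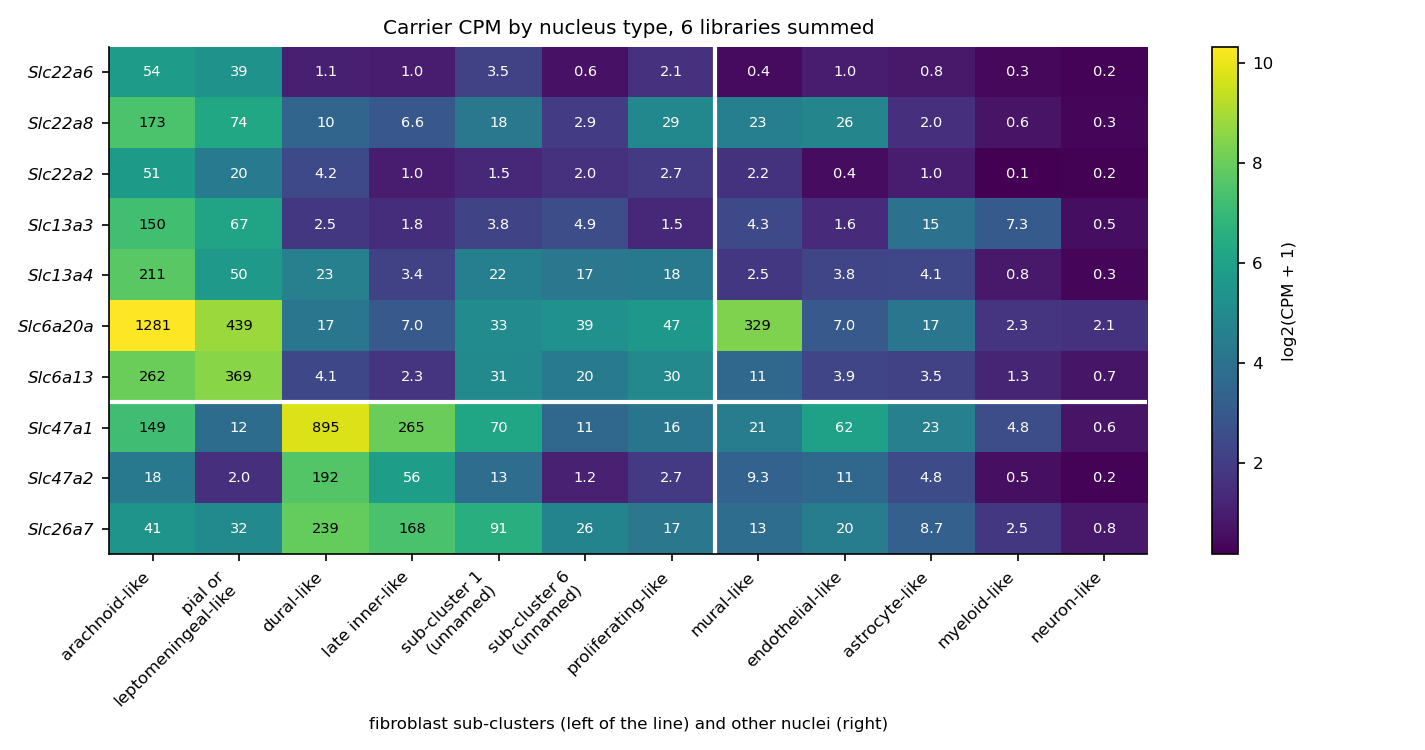
Levels of the 10 carriers (CPM, log scale) in each fibroblast type, summed over the 6 libraries. Error bars, where drawn, are Poisson 95% intervals. All arachnoid carriers but Slc6a13 are highest in arachnoid-like nuclei, which is highest in pial or leptomeningeal-like nuclei at 369 CPM, and the 3 late carriers are highest in dural-like nuclei.

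Across 26 units of fibroblast type and library with at least 50 nuclei, log2 levels followed the same division. Pearson's r between 2 arachnoid carriers ran from 0.82 (Slc22a2 and Slc6a13) to 0.94 (Slc22a6 and Slc13a3). It was 0.96 between Slc47a1 and Slc47a2 and 0.82 between Slc47a1 and Slc26a7. Between the sets every r was negative, from -0.55 (Slc6a13 and Slc26a7) to -0.16 (Slc22a2 and Slc47a1). The sets were named with the levels by type and time in these same libraries known, so the signs of r follow from the naming. They are no separate support for the division. The units share libraries and types, so these r values only describe them.

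The genes most like each carrier over the same 26 units were searched among 14054 genes. Nearest to Slc22a6 were Zkscan2 (r = 0.97), Dnajc6 (0.96) and Gatm (0.96), an enzyme of creatine synthesis. Slc22a8 was nearest to Bmp7 (0.95), a BMP ligand, and Slc22a2 to Shroom2 (0.94). Slc13a3 lay nearest to Slc6a12 (0.94), a betaine and GABA carrier, and Slc13a4 to Por (0.93), the reductase that serves cytochrome P450 enzymes. Slc6a20a was most like Pde1a (0.96), a phosphodiesterase, and Ralgps2 was among the genes most like Slc6a13 (0.95). Among the late carriers, Slc47a1 was most like Slc35g1 (0.93), Slc47a2 most like the sulfate transporter gene Slc26a2 (0.90) and Slc26a7 most like Smoc1 (0.84).

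In the sum over all fibroblasts, the 6 libraries ordered the arachnoid carriers in like ways, with Tgfbr2-cKO at 21 dpi first for each gene. At 7 dpi Slc22a6 was at 15.6, 13.2 and 20.8 CPM, taking Ctrl, ADWA11 and Tgfbr2-cKO in that order, and at 21 dpi at 12.5, 4.70 and 35.2 CPM. Tgfbr2-cKO at 21 dpi was above and ADWA11 at 21 dpi below the other 4 libraries, whose neighbours in order had overlapping intervals. Slc22a8 was at 39.6, 54.4 and 37.3 CPM at 7 dpi and 40.1, 21.1 and 84.9 CPM at 21 dpi, in the same order of conditions. Slc13a3 was at 22.1, 25.7 and 44.4 CPM and then 29.1, 13.5 and 127 CPM. These 2 genes shared the ends of the order with Slc22a6, and Slc13a3 was second in Tgfbr2-cKO at 7 dpi.

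Slc22a2 was at 6.55, 12.1 and 16.0 CPM in Ctrl, ADWA11 and Tgfbr2-cKO fibroblasts at 7 dpi and at 9.27, 6.20 and 45.9 CPM at 21 dpi. Slc13a4 was at 41.7, 54.2 and 51.9 CPM and then 45.3, 37.1 and 122 CPM, and no neighbours among its 5 lower libraries were separated by their intervals. Slc6a20a was at 119.8, 165 and 309.6 CPM and then 254, 189 and 977 CPM, with every neighbour in that order separated. The GABA and taurine carrier Slc6a13 was lowest in both WT libraries of 21 dpi. It was at 115, 133 and 159.5 CPM at 7 dpi and 41.2, 24.0 and 215 CPM at 21 dpi.

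The late carriers ordered the libraries otherwise. At 7 dpi Slc47a1 was at 65.2, 67.4 and 59.9 CPM in the same order of conditions, with overlapping intervals, and at 691, 629 and 77.8 CPM at 21 dpi. Slc47a2 was at 14.4, 14.2 and 11.8 CPM and then 143, 131 and 15.2 CPM. Both MATE genes were thus high in the 2 WT libraries of 21 dpi and low in the other 4. Slc26a7 was at 99.4, 54.7 and 48.6 CPM at 7 dpi and 232, 143 and 50.3 CPM at 21 dpi, so that Ctrl at 7 dpi lay between the high and the low libraries.

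The share of nuclei with at least 1 UMI was taken after each nucleus was thinned to 2000 UMIs. Slc6a20a was found in 12.1%, 16.1% and 24.4% of Ctrl, ADWA11 and Tgfbr2-cKO fibroblasts at 7 dpi and in 13.2%, 9.26% and 40.1% at 21 dpi, and without thinning in 19.7%, 27.6%, 32.6%, 17.7%, 12.5% and 47.9%. Tgfbr2-cKO at 21 dpi was the highest by share and by CPM, but the lower libraries were ordered otherwise. From 7 to 21 dpi in Ctrl the CPM of Slc6a20a went from 119.8 to 254 while its share without thinning went from 19.7% to 17.7%, so no order of those libraries is read from the shares. Slc47a1 was found in 7.24%, 6.99% and 5.77% at 7 dpi and in 46.7%, 40.3% and 6.78% at 21 dpi, and without thinning in 11.2%, 12.1%, 8.62%, 61.0%, 54.8% and 11.97%. Slc22a2 was found in 1.01% to 7.60% of thinned fibroblasts, Slc22a6 in 1.05% to 6.67%, Slc13a3 in 2.39% to 21.8%, Slc6a13 in 3.83% to 25.4%, Slc22a8 in 4.27% to 14.9% and Slc13a4 in 6.09% to 17.5%. In each of these 6 genes as well the highest share was that of Tgfbr2-cKO at 21 dpi.

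In the control lesion the late carriers and Slc6a20a were higher at 21 than at 7 dpi, and Slc6a13 was lower. Slc47a1 was at 65.2 CPM (61.4 to 69.2) in Ctrl fibroblasts at 7 dpi and at 691 CPM (682 to 701) at 21 dpi, a log2 ratio of 3.41. Slc47a2 went from 14.4 to 143 CPM (3.31) and Slc26a7 from 99.4 to 232 CPM (1.22). The imino acid carrier Slc6a20a went from 119.8 to 254 CPM (1.08), while Slc6a13, the GABA and taurine carrier, went from 115 to 41.2 CPM (-1.47). In female nuclei alone Slc6a13 was at -0.99 (86.3 to 43.5 CPM), and in male nuclei alone Slc6a20a was at 0.28. Without the type with myofibroblast markers Slc6a20a was at 0.12. Clustering of log-normalised counts left unnamed, and so outside the fibroblast class, a cluster of 3117 nuclei with Slc6a13, Lama1 and Lamc3 among its leading genes and one of 3303 nuclei with Slc6a20a, Trpm3 and Cdh1. Slc6a13 was at 0.14 in the class without them and at -1.55 where clusters were taken by leading class, which counts both as fibroblasts. The other arachnoid carriers moved by less, between -0.32 for Slc22a6 and 0.50 for Slc22a2. A gene is counted as higher or lower in a comparison where its log2 ratio was at least 1 in size with at least 20 UMIs over the pair of libraries. By that rule 4 of the 10 carriers were higher and 1 lower, beside 13.9% and 7.14% of the 17310 genes counted. The median log2 ratio was 0.45 over the carriers and 0.08 over all genes.

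Under ADWA11 the same 3 late carriers were higher at 21 dpi and 3 arachnoid carriers were lower. In ADWA11 fibroblasts Slc47a1 was at 67.4 CPM at 7 dpi and 629 CPM at 21 dpi, Slc47a2 at 14.2 and 131 CPM, and Slc26a7 at 54.7 and 143 CPM. Slc6a13 went from 133 to 24.0 CPM (log2 ratio -2.47), Slc22a6 from 13.2 to 4.70 CPM (-1.49) and Slc22a8 from 54.4 to 21.1 CPM (-1.36). The mice of the libraries differed here, and in female nuclei alone both stopped short of the size rule. There Slc22a6 went from 13.4 to 8.996 CPM (-0.57) and Slc22a8 from 47.4 to 33.9 CPM (-0.48). In male nuclei Slc22a6 went from 14.4 to 2.31 CPM and Slc22a8 from 62.5 to 12.999 CPM. Slc22a2, at 12.1 and 6.20 CPM (-0.96), and the dicarboxylate carrier Slc13a3, at 25.7 and 13.5 CPM (-0.93), stopped just short. In all 3 of 10 carriers were higher and 3 lower, beside 11.7% and 8.76% of all genes, with a median of -0.74 over the carriers and 0.04 over all genes. The number lower depended on the mouse. In male nuclei alone Slc22a2 (14.0 to 5.77 CPM), Slc13a3 (28.5 to 10.3 CPM) and Slc13a4 (59.3 to 26.1 CPM) were lower by the rule as well. In female nuclei alone only Slc6a13 was lower (110 to 34.2 CPM).

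In Tgfbr2-cKO fibroblasts no late carrier reached the size rule between the times and 5 of the 7 arachnoid carriers were higher at 21 dpi. Slc47a1 was at 59.9 CPM (49.97 to 71.3) at 7 dpi and 77.8 CPM (71.8 to 84.2) at 21 dpi. The nuclei of each sex went opposite ways, from 81.1 to 41.9 CPM in female (-0.95) and from 35.7 to 111 CPM in male nuclei (1.63), and 91 of the 613 UMIs at 21 dpi lay in 1 nucleus. Slc47a2 was at 11.8 and 15.2 CPM and Slc26a7 at 48.6 and 50.3 CPM. These levels are close to those of the Ctrl and ADWA11 libraries at 7 dpi for Slc47a1 and Slc47a2. Slc6a20a went from 309.6 to 977 CPM (log2 ratio 1.66), Slc22a2 from 16.0 to 45.9 CPM (1.52), Slc13a3 from 44.4 to 127 CPM (1.52), Slc13a4 from 51.9 to 122 CPM (1.23) and Slc22a8 from 37.3 to 84.9 CPM (1.19). Slc22a6 (0.76) and Slc6a13 (0.43) did not reach the size rule. Of the 10 carriers, 5 were higher and 0 lower, beside 8.41% and 7.45% of all genes, with a median of 0.97 over the carriers and -0.04 over all genes. The counts depend on which nuclei enter. Leaving out the type with myofibroblast markers, which held 140 of the 325 fibroblasts at 7 dpi and 5 of the 869 at 21 dpi, gave 0 higher and 0 lower. Clustering of log-normalised counts, whose fibroblast class lacks the 2 clusters named above, gave 2 higher and 1 lower, and 5 higher and 0 lower where clusters were taken by leading class. In male nuclei alone Slc22a2 was at 0.37. Without the unnamed type that lay almost wholly in the 21 dpi library, 9 were higher, among them Slc47a1 (1.06) and Slc47a2 (1.08), with Slc26a7 at 0.48. For these alternative counts the share of all genes is not given, and the shares above are those of all fibroblasts. Counts at 7 dpi were small, with 25 UMIs of Slc47a2, 12 of them in 1 nucleus.

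At 21 dpi all 10 carriers differed between Tgfbr2-cKO and Ctrl fibroblasts by the size rule, in opposite directions for the sets. The 7 arachnoid carriers were higher in Tgfbr2-cKO, with log2 ratios of 2.38 for Slc6a13 (counting interval 2.27 to 2.49), 2.31 for Slc22a2, 2.13 for Slc13a3, 1.94 for Slc6a20a, 1.49 for Slc22a6, 1.43 for Slc13a4 and 1.08 for Slc22a8. The 3 late carriers were lower, at -3.15 (-3.27 to -3.04) for Slc47a1, -3.23 for Slc47a2 and -2.21 for Slc26a7. Over all genes counted, 9.37% were higher and 8.23% lower by the same rule, and the median log2 ratio was -0.01. Leaving out the unnamed type of 306 nuclei in that library kept 7 higher and 3 lower, with the arachnoid carriers between 1.85 (Slc22a8) and 3.12 (Slc6a13). In female nuclei alone Slc22a8 was at 0.89. The fibroblast class of log-normalised clustering, without the 2 clusters led by Slc6a20a and Slc6a13 among others, gave 2 higher and put Slc22a6 at -1.95, Slc22a8 at -0.74 and Slc22a2 at -0.11. These values are not of the same nuclei, and with the clusters taken by leading class 7 were higher and 3 lower, with Slc22a6 at 1.61, Slc22a8 at 1.22 and Slc22a2 at 2.40.

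These ratios join the share of nuclei of each type with the level in each type. Arachnoid-like nuclei made up 46.4% (43.0 to 49.8) of Tgfbr2-cKO fibroblasts and 15.3% (14.3 to 16.5) of Ctrl fibroblasts at 21 dpi. Dural-like nuclei made up 9.44% and 45.1%, and late inner-like nuclei 0.115% and 32.3%. The summed level of the 10 arachnoid markers, none of them a carrier, was 22927 CPM in Tgfbr2-cKO and 5289 CPM in Ctrl fibroblasts. Most of that sum was Trpm3, with 572205 fibroblast UMIs over the 6 libraries against 60446 of Ptgds and 13246 of Cldn11, and Krt18 had 2. The genes that define the types can differ between conditions too, and the amount of overlying meninges taken with each lesion is not known, so shares are given as a description.

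Among arachnoid-like nuclei alone, 403 of Tgfbr2-cKO and 634 of Ctrl at 21 dpi, the differences in the arachnoid carriers were smaller. Slc22a2 was at 98.6 CPM (87.9 to 110.2) against 34.8 CPM (29.4 to 41.0), a log2 ratio of 1.5, and Slc6a13 at 429 against 174 CPM (1.30). Slc13a3 was at 288 against 170.3 CPM (0.76) and Slc6a20a at 2258 against 1513 CPM (0.58). The remaining levels lay closer together. Slc13a4 was at 268 against 204 CPM (0.39), Slc22a6 at 77.7 against 64.8 CPM (0.26), and Slc22a8 at 189 against 190.4 CPM, a ratio of -0.01 with a counting interval of -0.16 to 0.15. Within pial or leptomeningeal-like nuclei Slc22a2 was again higher, with a log2 ratio of 1.54 (0.85 to 2.25) over 72 and 217 nuclei, whereas Slc6a20a was at -0.08.

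The late carriers were lower in Tgfbr2-cKO also within the arachnoid-like type. Slc47a1 was at 24.96 CPM (19.8 to 31.1) in Tgfbr2-cKO and 369 CPM (351 to 388) in Ctrl arachnoid-like nuclei at 21 dpi, a log2 ratio of -3.89. Slc47a2 was at 2.21 against 47.4 CPM (-4.42) and Slc26a7 at 8.85 against 107 CPM (-3.60). In dural-like nuclei, where these genes are highest, the difference was smaller, over 82 and 1865 nuclei. Slc47a1 was at 546 CPM in Tgfbr2-cKO and 1145 CPM in Ctrl (-1.07), Slc47a2 at 116 and 244 CPM (-1.07) and Slc26a7 at 280.1 and 322 CPM (-0.20). In the same nuclei Slc6a13 was higher in Tgfbr2-cKO, at 39.2 against 5.47 CPM. The late carriers were also lower outside fibroblasts. After thinning, at least 1 of them was found in 18.8% of endothelial-like, 10.2% of astrocyte-like and 7.96% of T cell-like nuclei of Ctrl at 21 dpi. In Tgfbr2-cKO at 21 dpi the share was 0% in each of these classes. The fall is thus not particular to arachnoid-like nuclei, and the part of RNA from other nuclei in these ratios was not tested.

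The type with myofibroblast markers, the largest type at 7 dpi, held much of the Slc26a7 at that time. It held 74.0% of the fibroblast UMIs of Slc26a7 in Ctrl, 64.2% in ADWA11 and 48.5% in Tgfbr2-cKO. It made up 58.2%, 49.4% and 43.1% of the fibroblasts of these libraries. Its levels of 125, 71.0 and 50.8 CPM compare with 99.4, 54.7 and 48.6 CPM in all fibroblasts, so its share of UMIs partly follows its size.

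At 7 dpi fewer carriers differed between Tgfbr2-cKO and Ctrl fibroblasts. Slc6a20a was at 309.6 CPM (286 to 334) against 119.8 CPM (115 to 125), a log2 ratio of 1.37, Slc22a2 at 16.0 against 6.55 CPM (1.29) and Slc13a3 at 44.4 against 22.1 CPM (1.00). Slc13a3 was at the edge of the rule and fell short in female nuclei (0.80), in male nuclei (0.92), with TMM scaling (0.85), without nuclei called doublets (0.97), with the mean of CPM per nucleus (0.98) and without the type with myofibroblast markers (0.78). Slc22a2 fell short in female nuclei (0.60) and Slc6a20a in male nuclei (0.93), so each of the 3 calls is lost in the nuclei of at least 1 sex. Slc26a7 was lower, at 48.6 against 99.4 CPM (-1.03), at the edge of the rule. Slc26a7 no longer passed with the mean of CPM per nucleus (-0.83), with the unnamed clusters counted (-0.90), with log-normalised clusters taken by leading class (-0.84) or without the type with myofibroblast markers (-0.43). Of the 10 carriers, 3 were higher and 1 lower, beside 8.56% and 4.98% of all genes, with a median of 0.37 over the carriers and 0.09 over all genes. Slc22a6 was at 20.8 CPM (15.1 to 27.9) against 15.6 CPM (13.7 to 17.6), Slc22a8 at 37.3 against 39.6 CPM and Slc47a1 at 59.9 against 65.2 CPM, each with overlapping intervals. The neuron markers carried by the Tgfbr2-cKO fibroblasts of that time moved with these values, and their part was not tested. Neuron-like nuclei held at most 2.13 CPM of any carrier over the 6 libraries.

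In the sum over fibroblasts ADWA11 and Ctrl were closer to each other. At 7 dpi 0 of the 10 carriers passed the size rule in either direction, beside 6.76% higher and 3.35% lower over all genes, with a median of 0.21 over the carriers and 0.08 over all genes. The largest differences were Slc22a2, at 12.1 against 6.55 CPM (log2 ratio 0.89), and Slc26a7, at 54.7 against 99.4 CPM (-0.86). Slc22a2 passed the rule in male nuclei alone, at 14.0 against 6.14 CPM. Slc26a7 passed it in female nuclei alone, at 51.5 against 114.7 CPM, and the fibroblast class of log-normalised clustering gave 2 higher. At 21 dpi 0 were higher and 2 lower, beside 4.17% and 3.9% of all genes, with medians of -0.64 and 0.01. The lower genes were the organic anion carrier Slc22a6, at 4.70 against 12.5 CPM (-1.41), and the dicarboxylate carrier Slc13a3, at 13.5 against 29.1 CPM (-1.11). Slc22a6 was at -0.70 in female and Slc13a3 at -0.92 in male nuclei alone, short of the rule. Slc22a8 stood at -0.92. Slc47a1 and Slc47a2, at 629 against 691 CPM and 131 against 143 CPM, were within -0.14 and -0.13 of Ctrl. These sums join types of unequal share. Dural-like nuclei made up 78.1% of ADWA11 and 45.1% of Ctrl fibroblasts at 21 dpi, and late inner-like nuclei 3.63% and 32.3%. Within dural-like nuclei Slc47a1 was lower in ADWA11, as given below.

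Within arachnoid-like nuclei at 21 dpi, 373 of ADWA11 and 634 of Ctrl, no arachnoid carrier reached the size rule. Slc22a6 was at 34.4 against 64.8 CPM (log2 ratio -0.91), Slc13a3 at 97.1 against 170.3 CPM (-0.81) and Slc22a8 at 127 against 190.4 CPM (-0.59). Slc6a20a, at 1516 against 1513 CPM, gave 0.00 (-0.06 to 0.06), and Slc22a2, at 36.0 against 34.8 CPM, gave 0.05 (-0.35 to 0.43). Slc26a7 was at -1.47 within the arachnoid-like type and at -0.96 within the dural-like type, where Slc47a1 was at -0.65. At 7 dpi 6 of the 7 arachnoid carriers, all but Slc22a6, had the opposite sign in the arachnoid-like type and in the fibroblast sum. The share of all genes with opposite signs, or past the size rule within the type, is not given. Within the type, 526 ADWA11 nuclei against 108 Ctrl nuclei, the 7 log2 ratios ran from -0.91 (Slc13a3) to -0.30 (Slc22a6), none past the size rule, while it made up 21.1% of ADWA11 and 5.52% of Ctrl fibroblasts.

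**Figure D2:**
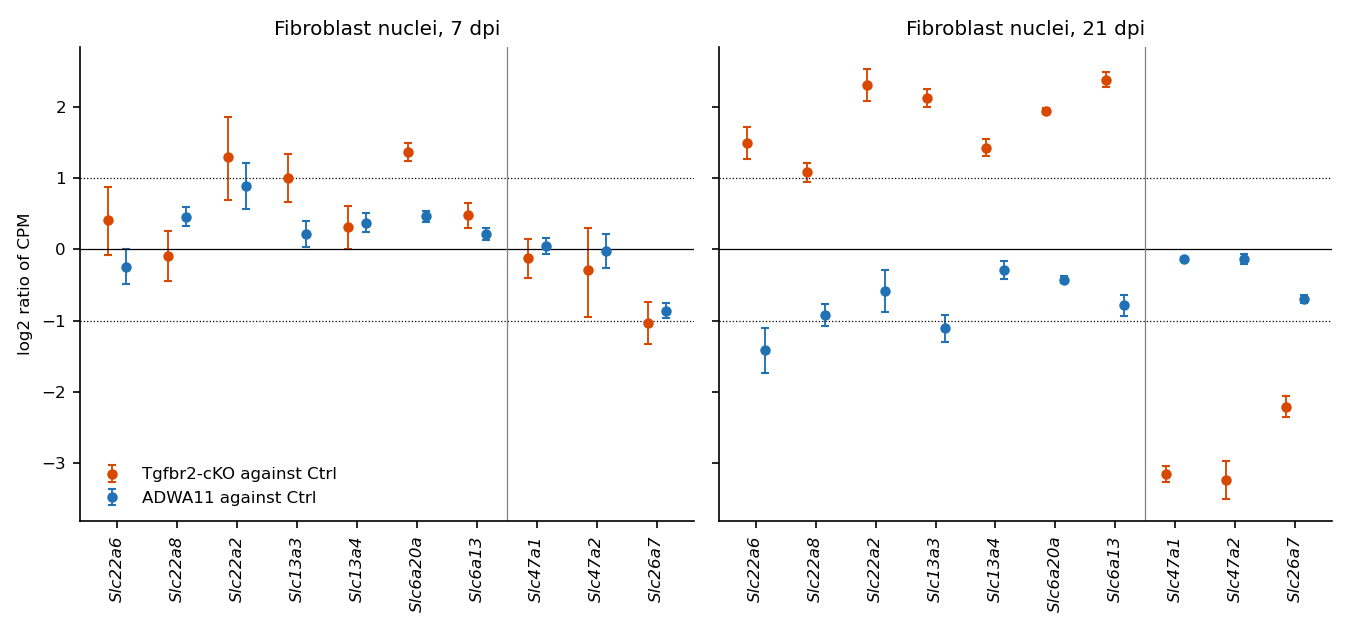
Log2 ratio of each carrier in fibroblasts in comparisons of libraries, among them those of Tgfbr2-cKO and ADWA11 with Ctrl. Error bars are conditional binomial 95% intervals (counting error only), and the lines at 1 and -1 mark the size rule. In Tgfbr2-cKO against Ctrl at 21 dpi the 7 arachnoid carriers lie above 1 and the 3 late carriers below -1, down to -3.23 for Slc47a2.

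Levels by library were also taken within the types that hold most of the arachnoid carriers. Tgfbr2-cKO at 7 dpi had only 37 arachnoid-like nuclei, which limits its values. In arachnoid-like nuclei Slc22a6 was at 48.3, 39.2 and 58.5 CPM (Ctrl, ADWA11, Tgfbr2-cKO) at 7 dpi, then at 64.8, 34.4 and 77.7 CPM at 21 dpi, and neighbours in that order had overlapping intervals. Slc22a8 was at 257, 159.8 and 171 CPM and then 190.4, 127 and 189 CPM, highest in Ctrl at 7 dpi. Slc13a4 was at 267, 189.5 and 247 CPM and then 204, 178 and 268 CPM. In pial or leptomeningeal-like nuclei Slc6a13 was at 383, 394 and 372 CPM at 7 dpi and 346, 137 and 489 CPM at 21 dpi, so that ADWA11 at 21 dpi was the low library. Slc6a20a was at 296, 379 and 606 CPM and then 837, 361 and 791 CPM there. For ADWA11 against Ctrl at 21 dpi, over 113 and 217 nuclei, all 10 carriers had log2 ratios below 0 in this type, from -0.81 for Slc13a4 to -3.41 for Slc22a2. The share of all genes below 0 in these nuclei is not given, so the count is only a description.

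The comparisons share libraries, so the values of 1 are not independent of those of another. The comparisons of both conditions with Ctrl at a given time use the same Ctrl library, and each comparison of times uses libraries that also enter the comparisons of conditions.

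Within arachnoid-like nuclei of the control lesion the late carriers were also higher in the 21 dpi library than in the 7 dpi library. Slc47a1 was at 24.8 CPM (14.9 to 38.8) over 108 nuclei at 7 dpi and 369 CPM over 634 nuclei at 21 dpi, a log2 ratio of 3.89. Slc47a2 went from 2 to 196 UMIs (4.18) and Slc26a7 from 36.6 to 107 CPM (1.55). Of the arachnoid carriers, Slc6a20a went from 813 to 1513 CPM (0.90) and Slc6a13 from 367 to 174 CPM (-1.07), as in the sum over fibroblasts. In late inner-like nuclei Slc47a1 went from 35.9 to 319 CPM (3.15), and in dural-like nuclei, of which the 7 dpi library held 45, from 829.9 to 1145 CPM (0.46). Dural-like nuclei, in which Slc47a1 is highest, were 2.30% of Ctrl fibroblasts at 7 dpi and 45.1% at 21 dpi. The rise was also seen outside fibroblasts. At least 1 late carrier was found, after thinning, in 1.26% of endothelial-like nuclei of Ctrl at 7 dpi and 18.8% at 21 dpi. In T cell-like nuclei of Ctrl the shares were 0.735% and 7.96%. The part of RNA from other nuclei in the ratios within types was not tested.

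**Figure D3:**
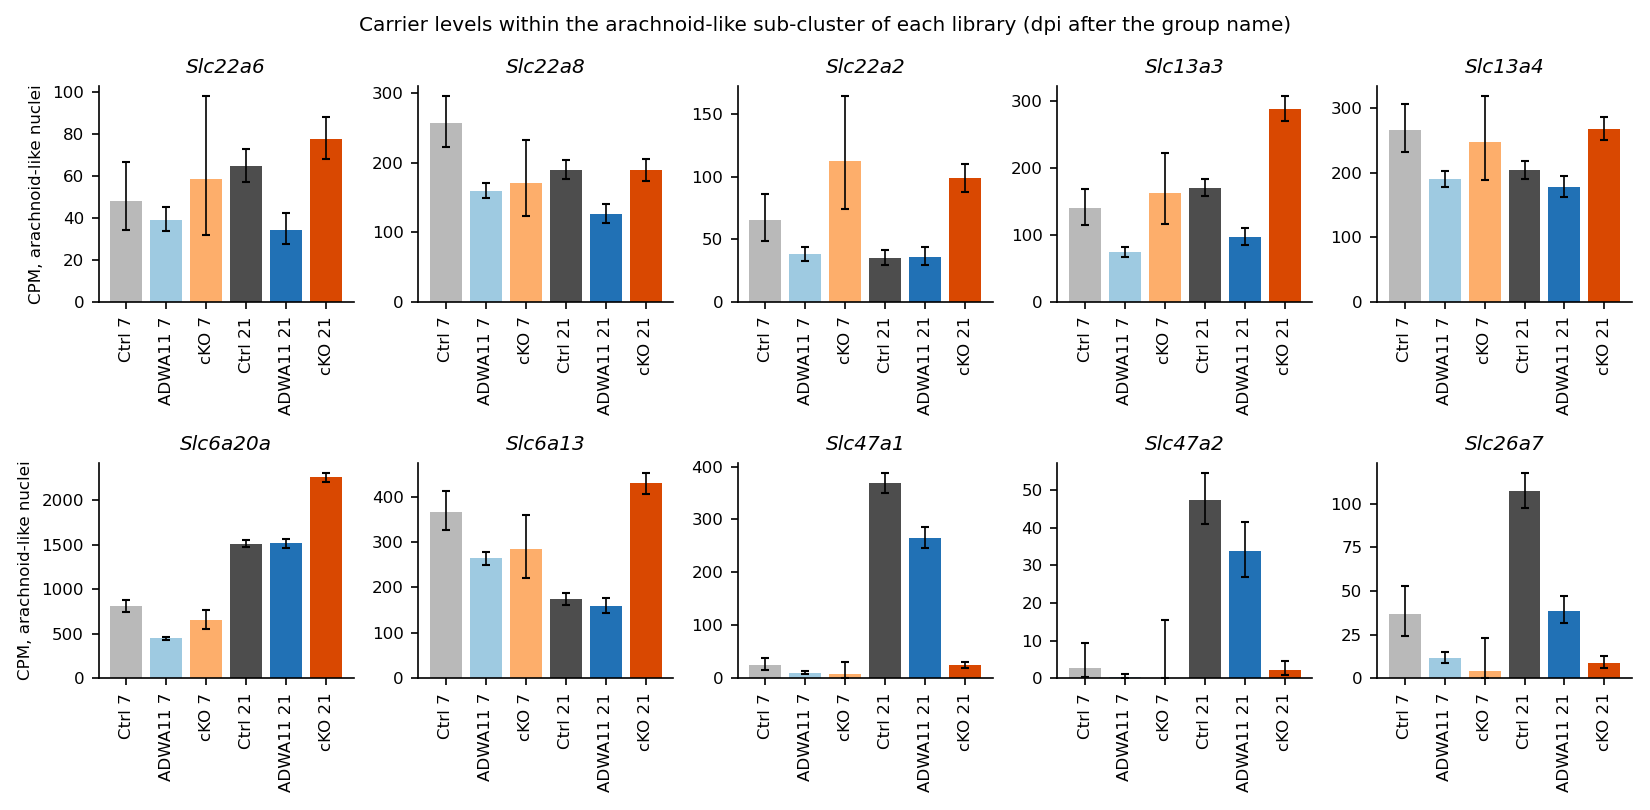
Level of each carrier (CPM) in arachnoid-like nuclei of each library, with Poisson 95% intervals. Slc47a1 is at 369 CPM in Ctrl and 265 CPM in ADWA11 at 21 dpi and at 24.96 CPM or less in the other 4 libraries, and Slc22a2 is highest in both Tgfbr2-cKO libraries, at 113 and 98.6 CPM. Tgfbr2-cKO at 7 dpi has only 37 of these nuclei.

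The nuclei of 1 female and 1 male mouse in each library could be told apart in part by Xist and Y-linked genes. At 21 dpi Slc6a20a was at 1141 CPM in the female and 820.2 CPM in the male nuclei of Tgfbr2-cKO, and at 305 and 176 CPM in those of Ctrl. Slc22a2 was at 61.5 and 33.2 CPM against 10.5 and 7.77 CPM, and Slc47a1 at 41.9 and 111 CPM against 672 and 734 CPM. For each of the 10 carriers the female and the male nuclei of Tgfbr2-cKO lay on the same side of those of Ctrl at 21 dpi. The share of all genes that do so is not given, so this only describes the carriers. The mice of a library also differed from each other. The widest case was Slc22a6 in ADWA11 at 21 dpi, at 8.996 CPM in the female and 2.31 CPM in the male nuclei, against 14.7 and 10.3 CPM in Ctrl. Mouse and sex cannot be told apart here.

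Co-detection asked whether the sets occur in the same nucleus. For this each nucleus was thinned to 2000 UMIs and shallower ones were left out, which kept 12344 fibroblasts, and a set counted as detected with 1 UMI of any of its genes. In Ctrl at 21 dpi 21.8% of fibroblasts (20.5 to 23.1) held the arachnoid set, 56.4% (54.9 to 58.0) the late set and 7.37% both. Nuclei with both were 33.8% of those with the arachnoid set and 13.1% of those with the late set. In Tgfbr2-cKO at 21 dpi 48.4% held the arachnoid set, 9.59% the late set and 0.936% both, which was 1.93% of nuclei with the arachnoid set and 9.76% of those with the late set. ADWA11 at 21 dpi lay nearer to Ctrl, with 16.1%, 47% and 4.59%. At 7 dpi both sets were found together in 1.53% of Ctrl, 1.38% of ADWA11 and 0.962% of Tgfbr2-cKO fibroblasts. Without thinning, both sets were found in 20.7% of Ctrl, 14.7% of ADWA11 and 7.83% of Tgfbr2-cKO fibroblasts at 21 dpi.

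Within arachnoid-like nuclei the late set was found in 36.3% (32.5 to 40.2) of Ctrl and 28.3% (23.8 to 33.2) of ADWA11 nuclei at 21 dpi, and in 4.83% (2.94 to 7.45) of Tgfbr2-cKO nuclei. At 7 dpi the shares were 7.92% (3.48 to 15.0) in Ctrl, 3.88% (2.38 to 5.92) in ADWA11 and 5.41% (0.661 to 18.2) in Tgfbr2-cKO. The Tgfbr2-cKO share at 7 dpi rests on 37 nuclei. Without nuclei called doublets the Ctrl share at 21 dpi was 34.8%. The arachnoid set itself was found in 67.0% to 82.7% of arachnoid-like nuclei in every library.

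Free RNA can give UMIs in nuclei that do not use a gene, and late carriers were counted in other classes of the same libraries. In T cell-like nuclei, which should lack them, the late set was found in 7.96% (4.79 to 12.3) of Ctrl, 4.88% of ADWA11 and 0% (0 to 1.47) of 249 Tgfbr2-cKO nuclei at 21 dpi, after thinning to the same 2000 UMIs. Before thinning these T cell-like nuclei had medians of 3057 to 3804 UMIs and the arachnoid-like nuclei of 6012.5 to 7253. The arachnoid-like share in Ctrl lay above the T cell-like share, and the Tgfbr2-cKO share of 4.83% lay above 0% in its own library. The amount of free RNA was not estimated, so its part in these shares was not tested. Endothelial-like and neuron-like nuclei of Ctrl at 21 dpi held the late set in 18.8% and 13.9%, above the T cell-like share, and the other named non-fibroblast classes of that library in 3.51% to 14.6%. The arachnoid set was found in 0% to 5.22% of T cell-like nuclei across the libraries. The ratio of the late genes in Ctrl at 21 dpi was as follows. Arachnoid-like nuclei of Ctrl at 21 dpi held 1526 UMIs of Slc47a1, 196 of Slc47a2 and 443 of Slc26a7, T cell-like nuclei 33, 11 and 14, and dural-like nuclei 16321, 3474 and 4593. The shares at 7 dpi, 0.735% of T cell-like nuclei in Ctrl and 0.592% in ADWA11, were lower.

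Pairs of carriers were found together at very unequal rates over the 12344 thinned fibroblasts. Slc22a6 and Slc22a8 were both found in 103 nuclei, 32.7% of those with Slc22a6 and 11.5% of those with Slc22a8. Slc22a6 and Slc13a3 shared 111 nuclei, 35.2% and 16.7%, and Slc22a6 and Slc6a20a 233, 74.0% and 12.7%. Across the sets, Slc22a6 and Slc47a1 shared 18 nuclei, 5.71% of those with Slc22a6 and 0.53% of those with Slc47a1. Of nuclei with Slc47a2, 89.0% also held Slc47a1 (1088 nuclei), and of those with Slc26a7, 59.9% did (1308). Shares of this kind depend on how high each gene is. Among 2034 thinned arachnoid-like nuclei, 25.7% held 0 of the 7 arachnoid carriers, 24.5% held 1, 19.0% held 2 and 1.52% held 6, and no nucleus held all 7.

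**Figure D4:**
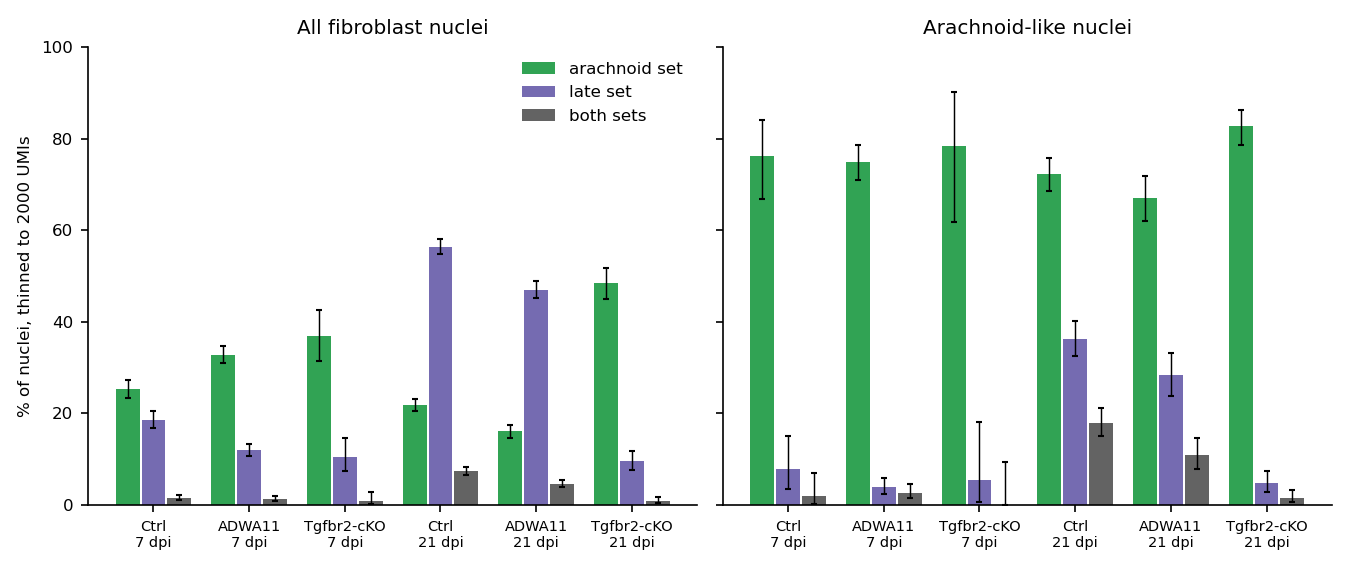
Percent of fibroblast nuclei, thinned to 2000 UMIs, with at least 1 UMI of the arachnoid set, the late set or both, in each library, with Clopper-Pearson 95% intervals. The late set is in 56.4% of Ctrl and 47% of ADWA11 fibroblasts at 21 dpi and in at most 18.6% in the other 4 libraries, and the arachnoid set is highest in Tgfbr2-cKO at 21 dpi, at 48.4%.

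Most UMIs of the carriers lay in fibroblasts. Fibroblast-like nuclei held 85.1% to 92.9% of all UMIs of 9 carriers in the kept nuclei and 66.7% of those of Slc13a3, of which 19.9% lay in myeloid-like and 7.11% in astrocyte-like nuclei. The myeloid UMIs of Slc13a3 were mainly those of ADWA11 at 7 dpi, at 16.9 CPM (15.7 to 18.1) against 1.61 to 4.23 CPM in the other libraries. Slc22a8 reached 26.4 CPM in endothelial-like nuclei, where it ran from 6.83 CPM in ADWA11 to 87.6 CPM in Tgfbr2-cKO at 21 dpi. Slc47a1 reached 62.3 CPM in endothelial-like nuclei, with 132 CPM in Ctrl and 81.9 CPM in ADWA11 at 21 dpi and at most 3.13 CPM in the other 4 libraries, and Slc26a7 reached 20.3 CPM there.

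Slc6a20a was also high in mural-like nuclei, the pericytes and smooth muscle of vessels. At 7 dpi it was at 22.5 CPM (12.6 to 37.2) in Ctrl, 116 CPM in ADWA11 and 1528 CPM (1320.2 to 1758) in Tgfbr2-cKO. At 21 dpi the levels were 254, 85.7 and 1357 CPM (1232 to 1491). Both Tgfbr2-cKO libraries were thus above the other 4, and after thinning 65.4% and 62.5% of their mural-like nuclei held Slc6a20a against 3.797% to 19.5%. The nuclei were few, 39 and 66 in Tgfbr2-cKO and 73 to 151 elsewhere. Slc22a8 was also higher there, at 173 and 75.2 CPM against 1.81 to 16.2 CPM. The makeup of the mural-like nuclei moved with this. Kcnj8, a pericyte marker, was at 142 and 94.0 CPM in Tgfbr2-cKO and 13.5 to 50.6 CPM elsewhere, and Cspg4 at 386 and 285 CPM against 151 to 263 CPM. Other mural markers did not follow. Rgs5 was at 1110.3 and 783 CPM against 1271 to 1492 CPM, Abcc9 at 1386 and 1303 CPM against 367 to 1689.7 CPM and Notch3 at 1567 and 1429 CPM against 1262 to 1979 CPM. Myh11, the smooth muscle myosin gene, was at 118 and 329 CPM in Tgfbr2-cKO and 235 to 1303 CPM elsewhere, and Col1a1 at 70.9 and 43.9 CPM against 333 to 555 CPM. Their part in the Slc6a20a values was not tested.

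Relatives of the carriers, the other 54 genes of the Slc22a, Slc13a, Slc6a, Slc47a and Slc26a families, were counted by the same rule, and 23 to 25 of them had enough UMIs. In Tgfbr2-cKO against Ctrl at 21 dpi 8 of 24 were higher and 3 lower, with a median log2 ratio of 0.25, beside 9.37% and 8.23% of all genes. Among the largest were the betaine and GABA carrier Slc6a12 (2.25), the glycine carrier Slc6a9 (1.94) and Slc22a23 (1.90). At 7 dpi 4 of 23 were higher and 3 lower, beside 8.56% and 4.98% of all genes, with Slc22a4 at 1.5, Slc22a22 at -1.34 and the proline carrier Slc6a7 at -3.42. In Ctrl 2 of 24 were higher at 21 than at 7 dpi and 4 lower, beside 13.9% and 7.14% of all genes. The sulfate transporter gene Slc26a2 was at 176 against 47.5 CPM (1.89), Slc22a22 was at 5.47 against 47.9 CPM (-3.13) and Slc6a12 at 5.64 against 18.5 CPM (-1.72), and Slc6a14 had 43 UMIs against 0, a log2 ratio of at least 2.94 with a floor of 3 counts in the 7 dpi library. ADWA11 against Ctrl gave 1 higher and 2 lower of 24 at 7 dpi, beside 6.76% and 3.35%, and 1 higher and 1 lower of 25 at 21 dpi, beside 4.17% and 3.9%. Between times ADWA11 gave 5 higher and 6 lower of 25, beside 11.7% and 8.76%, and Tgfbr2-cKO 5 higher and 2 lower of 23, beside 8.41% and 7.45%. With so few genes several of these counts are near the share of all genes. Slc6a12 was thus higher beside Slc6a13, the GABA carrier among the 10, in Tgfbr2-cKO at 21 dpi.

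A list of 32 genes of brain and meningeal barriers, holding ABC pumps, other carriers and junction proteins, was counted the same way. In Tgfbr2-cKO against Ctrl at 21 dpi 6 of 32 were higher and 2 lower, with a median of 0.37, beside 9.37% and 8.23% of all genes. The cystine and glutamate exchanger gene Slc7a11 was at 1861 against 209 CPM (3.15), the organic anion transporters Slco1a4 and Slco1c1 at 88.3 against 15.2 CPM (2.54) and 68.3 against 14.3 CPM (2.26), and the bicarbonate transporter Slc4a10 was lower, at 1515 against 4237 CPM (-1.48). At 7 dpi 5 were higher and 1 lower, beside 8.56% and 4.98%, with the E-cadherin gene Cdh1 at 2.04 and Slco1c1 at 1.75. In Ctrl 7 were higher and 4 lower at 21 than at 7 dpi, beside 13.9% and 7.14%, among them the monocarboxylate carrier Slc16a11 (3.15), Cdh1 (2.28), the amino acid carrier Slc38a2 (2.06) and Slc4a10 (1.89). ADWA11 against Ctrl gave 5 higher and 0 lower at 7 dpi, beside 6.76% and 3.35%, led by Slc16a11 (1.82) and Slco1c1 (1.66). At 21 dpi it gave 0 higher and 3 lower, beside 4.17% and 3.9%, and the lower genes were Cldn5 (-2.12), Slc7a5 (-1.75) and Slco1a4 (-1.11). Cldn5, used here as an endothelial marker, had only 246 fibroblast UMIs over the 6 libraries, and Slc7a5 had 516. The part of RNA from endothelial nuclei in the Cldn5 value was not tested. Between times ADWA11 gave 4 higher and 7 lower of 32, beside 11.7% and 8.76%, and Tgfbr2-cKO 7 higher and 2 lower of 31, beside 8.41% and 7.45%. Cldn11 and Cdh1 are in this list and also among the markers that define the arachnoid-like type.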

How the data were processed

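Nuclei of PT lesions were profiled by droplet RNA sequencing in 6 libraries. The authors made the deposited counts, whole UMI counts per gene and barcode with no normalization, on mm10 with Cell Ranger 7.2.0 per the file headers (the submitters' processing notes name 7.1.0). Following the cutoffs of the study, barcodes in the bottom or top 2.5% of their library for UMIs or genes, or in the top 2.5% for mitochondrial share, were dropped. Clustering used SCTransform (sctransform 0.4.2, Seurat 5.3.0, R 4.3.3), 3000 variable genes without mitochondrial, sex-linked and the 10 carrier genes, 30 principal components and Louvain resolutions of 0.5, or 0.2 within fibroblasts. A name needed at least 3 markers in at least 5% of nuclei at 2 times the level elsewhere. Doublets were simulated (2 per nucleus), 5825 of the 61917 filtered nuclei were called, and 1 sub-cluster (617 nuclei) in which 68.2% were called was removed from the fibroblasts. Names were rebuilt here and may differ from the study's. Total UMIs per library ran from 64798965 to 140310354. Log2 ratios of CPM carry conditional binomial 95% intervals, a calculation that was tested on simulated data, and no p-value was computed, since each group had 1 library. Python 3.11.15, scipy 1.17.1 and edgeR 4.0.16 (TMM scaling only, as an alternative) were used. The carriers, lists and tests were chosen with earlier results of these data known. All 10 carriers are named; of each list the genes past the size rule with the largest ratios, at most 4 per comparison, and the genes most like a carrier (at most 3) are named. Some genes that this rule picks are not reported here. Other alternatives changed the clustering, doublets, thinning, detection, mice and gene filter.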

Additional observations from a re-analysis of the deposited data

Results flagged for a closer look

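Of the arachnoid carriers, 6 differed in sign between the times in ADWA11 against Ctrl fibroblasts, with the 1 pair of libraries at 7 dpi above 0 and the 1 pair at 21 dpi below 0. The log2 ratios at 7 and 21 dpi were 0.46 and -0.92 for Slc22a8, 0.89 and -0.58 for Slc22a2, 0.22 and -1.11 for Slc13a3, 0.38 and -0.29 for Slc13a4, 0.46 and -0.42 for Slc6a20a and 0.21 and -0.78 for Slc6a13. The difference between the times was not tested. The median over all genes was 0.08 at 7 dpi and 0.01 at 21 dpi, and the share of all genes that change sign is not given. Arachnoid-like nuclei made up 21.1% of ADWA11 and 5.52% of Ctrl fibroblasts at 7 dpi and 13.4% and 15.3% at 21 dpi, and their part in these values was not tested.

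Carriers were also found in 2 clusters that were outside the fibroblast class of the reported comparisons and were counted in it only as an alternative. An unnamed cluster of 4065 nuclei, 2404 of them of Ctrl at 21 dpi, had 6 fibroblast markers raised (Col1a1, Col1a2, Col3a1, Dcn, Lum and Fbln1) and 25.5% doublet calls. It was left unnamed because its median of 1572 UMIs was low, at 0.313 of that of its libraries, and none of those markers was among its 10 leading genes. It had 1676 nuclei deep enough to be thinned to 2000 UMIs, and of those Slc47a1 was found in 28.8%, Slc26a7 in 15.2%, Slc47a2 in 10.4%, Slc6a20a in 3.16%, Slc22a8 in 1.97%, Slc13a4 in 1.79% and Slc6a13 in 1.37%. An unnamed cluster of 693 nuclei, with 9 fibroblast markers raised but bone genes (Bglap, Ibsp and Sp7) among its leading genes, held Slc26a7 in 3.51% of the 627 thinned.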

How the results depend on the processing

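No paired analysis was possible because each group has 1 library with no replicate number. No library could be left out of a group, and only the nuclei of 1 mouse of each library, by sex, were. Of the counts of carriers and the co-detection shares, 162 values stayed near the reported one and 52 moved, and of the single ratios 531 stayed, 226 moved and 4 reversed. Clustering of log-normalised counts formed the fibroblast-like class from other clusters. It took in 1 of 3668 nuclei with 29.7% doublet calls and left unnamed 1 of 3303 nuclei with Trpm3, Slc6a20a and Cdh1 among its leading genes and 1 of 3117 with Lama1, Lamc3 and Slc6a13, so its values are those of a class without these nuclei. It gave 2 lower in Tgfbr2-cKO against Ctrl at 7 dpi, 2 higher at 21 dpi, 2 higher under ADWA11 at 7 dpi and 5 lower at 21 dpi, 0 lower in Ctrl over time, and 2 higher and 1 lower in Tgfbr2-cKO over time. It reversed Slc22a6 (-1.95), Slc22a8 (-0.74) and Slc22a2 (-0.11) in Tgfbr2-cKO against Ctrl at 21 dpi and Slc6a13 (0.14) in Ctrl over time. With its clusters taken by leading class, which counts both as fibroblasts and was chosen after seeing the data, these 4 ratios were 1.61, 1.22, 2.40 and -1.55, and 0 were lower in Tgfbr2-cKO at 7 dpi and 5 lower in ADWA11 over time. The mean of CPM per nucleus gave 0 lower in Tgfbr2-cKO at 7 dpi. Female nuclei alone gave 1 higher in Tgfbr2-cKO at 7 dpi, 1 lower under ADWA11 at 7 and 1 at 21 dpi, 0 lower in Ctrl over time and 1 lower in ADWA11 over time. Male nuclei alone gave 1 higher in Tgfbr2-cKO and 1 higher under ADWA11 at 7 dpi and 6 lower in ADWA11 over time. Leaving out sub-clusters with more leading genes of another class than of fibroblasts, which removed only the type with myofibroblast markers (1 such gene, Vcan, against 0), gave 0 lower in Tgfbr2-cKO at 7 dpi, 2 lower in Ctrl and 6 lower in ADWA11 over time and 0 higher in Tgfbr2-cKO over time. Of choices added after seeing the data, counting the unnamed clusters 4 and 21 as fibroblasts gave 0 lower in Tgfbr2-cKO at 7 dpi and 5 lower in ADWA11 over time, and leaving out the unnamed type of Tgfbr2-cKO gave 9 higher in Tgfbr2-cKO over time. The cause was not tested. For none of these alternative counts is the share of all genes past the rule in the same nuclei given. The same holds for such counts above, so they are not set against a background. Among nuclei with the late set, the share that also held the arachnoid set, in Ctrl and ADWA11 at 7 dpi and Ctrl, ADWA11 and Tgfbr2-cKO at 21 dpi, was 27.8%, 29.5%, 29.0%, 23.6% and 41.98% without thinning, and 0%, 1.35%, 3.33%, 1.30% and 2.63% with 2 UMIs required. Thinned to 4000 UMIs it was 14.0% in Ctrl at 7 dpi and 21.3%, 15.4% and 24.3% in Ctrl, ADWA11 and Tgfbr2-cKO at 21 dpi. A 5-gene arachnoid set gave 5.4% in Ctrl at 7 dpi and 10.3% and 8.15% in Ctrl and ADWA11 at 21 dpi. Log-normalised clustering gave 2.30%, 5.58% and 0% at 7 dpi and 5.90%, 4.97% and 0% at 21 dpi in Ctrl, ADWA11 and Tgfbr2-cKO. Male nuclei gave 10.7% in Ctrl and 6.02% in ADWA11, and female nuclei 13.7% in ADWA11 and 0% in Tgfbr2-cKO at 21 dpi. Small counts in Tgfbr2-cKO at 7 dpi (25 UMIs of Slc47a2) limit that library most.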
